A study of Homo sapiens with 19 samples.

Results

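EZH1-/- H1 cells were compared with wild-type (WT) H1 cells in 2 RNA-seq samples of each genotype, 4 of the 19 samples of the series. They were taken by their titles and genotype labels, and no measured value entered the choice. H1 is an established line of human embryonic stem cells (hESCs), and it was kept in mTeSR1 medium on matrigel. The study deleted components of polycomb repressive complex 2 (PRC2) in H1 cells and sequenced the RNA of the resulting lines. In the EZH1 knockout, the stretch of EZH1 that codes for its critical domain was replaced with a drug resistance cassette by CRISPR/Cas9 and homologous recombination. The WT samples carried no targeted allele. EZH2-/- H1 cells, made in the same way and with 2 samples, were used where a level in EZH1-/- cells was set against the other single knockout, and the EED-/-, SUZ12-/- and EZH2-/-/EZH1-/- samples entered only a wider fit. The study worked with several clones per gene, and the titles of the EZH1-/- samples carry different P numbers, but the labels do not say whether these are passages or clones. No label says that samples came from separate cultures, so p-values measure only the spread between these samples, which may be technical.

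PRC2 places methyl groups on lysine 27 of histone H3, a mark found over silent developmental genes. EZH1 and EZH2 are its alternative catalytic subunits, and EED and SUZ12 are needed for the complex to work with either. EZH2 is the main enzyme in dividing cells, whereas EZH1 is known best from resting and differentiated cells.

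The deposited values were in TPM, a unit that scales each sample to the same total and each gene by its length, so sequencing depth was unknown. Between 14755 and 15704 genes reached a TPM of 1 in the 4 samples, and 15476 of 33382 genes reached it in at least 2 of them and were tested. Differences are given on the log2(TPM + 1) scale, EZH1-/- minus WT, with the limma standard error. This scale understates the change of low genes. The samples of one genotype lay close together. Only 34 genes (0.22%) were at least 3-fold apart between the WT samples and 29 (0.187%) between the EZH1-/- samples, against 198 to 352 genes (1.28% to 2.27%) in the 4 pairs of a WT with an EZH1-/- sample.

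EZH1 itself, at chr17:42700275-42745049 of GRCh38 in the GENCODE annotation, had a TPM of 13.71 and 14.29 in WT cells and 12.49 and 17.07 in EZH1-/- cells. These groups overlapped, and the difference was 0.06 ± 0.19 (SE, limma adjusted p = 0.84). The value covers the whole gene, so RNA from outside the replaced stretch counts towards it, and it does not check the knockout. EZH1 had a TPM of 9.72 and 7.92 in EZH2-/- cells, below both of the other genotypes. The labels of the EZH1-/- samples were taken as given. Of 38 tested genes within 500 kb of EZH1, 0 passed the main threshold given next, 6 were higher and 3 lower by the looser one, and their median difference was 0.07. By the looser threshold 14.4% of all tested genes were higher and 14.1% lower.

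Few genes differed strongly. A gene was called when its Benjamini-Hochberg adjusted p from limma was at most 0.01 and its estimated fold at least 3. By this rule 127 genes (0.821% of those tested) rose and 39 (0.252%) fell in EZH1-/- cells. At an adjusted p of at most 0.05 with no fold limit, 2228 genes (14.4%) were higher and 2181 (14.1%) lower, mostly by small amounts. The median difference over all genes was 0.02, and 14521 genes (93.8%) had an estimate within 2-fold. For 11258 genes (72.7%) the whole 95% confidence interval of the difference lay within 2-fold. Among the 1617 genes with a mean TPM of at least 100 in WT cells this held for 1426 (88.2%), and only 3 of them rose and 6 fell.

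**Figure D1:**
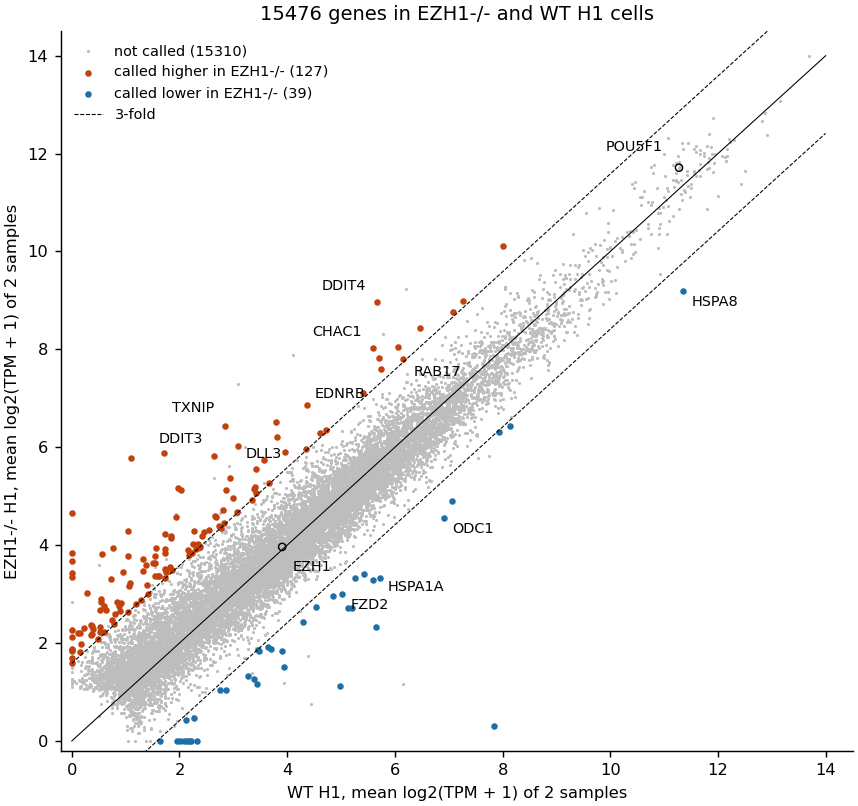
Each point is a gene, with the mean log2(TPM + 1) of the 2 WT samples on the horizontal axis and of the 2 EZH1-/- samples on the vertical axis, with dashed lines at 3-fold. Called genes, coloured, passed a limma adjusted p of 0.01 and 3-fold, and most of the 127 higher and 39 lower genes sat at low levels, whereas POU5F1 and EZH1, ringed, lay near the line of equal levels.

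The calls depended on the estimate of the spread. When all 12 samples of the WT and knockout lines were fitted together, 15 genes (0.0969%) rose and 8 (0.0517%) fell, all 23 of them among the calls above, and at an adjusted p of at most 0.05 there were 187 higher (1.21%) and 78 lower (0.504%). Values corrected for the GC content of the transcripts gave 1990 higher (12.9%) and 2056 lower (13.3%) at that threshold. Of the risers named below, DDIT3, CHAC1, DDIT4, TXNIP, TSC22D3, DLL3, RAB17, PLA2G16, PTPRN, RTP1, LSMEM2, RP11-536I6.2 and CTC-458G6.4 kept their calls in the fit of 12 samples. Of the falls named below, HSPA8, HSPA1A, HSPA1B, ODC1, FZD2 and CCKBR kept theirs, and the calls of the other genes named were lost in it.

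Genes of the response to amino acid shortage and endoplasmic reticulum (ER) stress were among those that rose. In this response the factor ATF4 raises genes of amino acid supply and of growth arrest. DDIT3, which encodes the stress factor CHOP, had a TPM of 4.84 and 5.66 in WT cells and 47.26 and 66.19 in EZH1-/- cells, a difference of 3.19 ± 0.19 (adjusted p = 1.968e-05). CHAC1, an enzyme that degrades glutathione, went from 48.23 and 46.4 to 253.83 and 265.3, a difference of 2.43 ± 0.10 (adjusted p = 2.432e-06). SESN2, a leucine sensor that restrains the growth kinase mTORC1, went from 19.69 and 18.96 to 60.53 and 62.69, at 1.62 ± 0.12. For each of these 3 genes the EZH1-/- samples lay far above both WT samples and above both EZH2-/- samples. After GC correction SESN2 stood at 1.48, under 3-fold, with an adjusted p of 6.7e-05.

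The rest of the response did not move as a block. Of 19 genes listed for it, 9 were higher and 3 lower at an adjusted p of at most 0.05. Over all tested genes these shares were 14.4% and 14.1%, and the list median was 0.47. In the fit of 12 samples 4 were higher and 0 lower. ATF3, a stress-induced partner of CHOP, went from 17.26 and 16.92 to 47.2 and 58.69, a difference of 1.57 ± 0.14 that fell short of 3-fold. ATF4 itself was lower by this threshold, at -0.33 ± 0.10, although its protein is controlled mainly at translation. The ER chaperone HSPA5 and its cofactor DNAJB9 were lower as well, at -0.65 ± 0.17 and -0.84 ± 0.25, whereas ASNS, which makes asparagine, was higher at 0.57 ± 0.18. TRIB3, a pseudokinase induced by CHOP, had values of 14.16 and 10.45 in WT cells and 20.07 and 48.0 in EZH1-/- cells and did not pass (adjusted p = 0.062).

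INHBE and FGF21, which encode secreted hormones made by the stressed liver, also rose. INHBE, a subunit of activin E, had a TPM of 12.66 and 13.57 in WT cells and 55.93 and 94.87 in EZH1-/- cells, a difference of 2.39 ± 0.22. In EZH2-/- cells it was at 3.4 and 5.65, below both WT samples. FGF21 was near the floor in WT cells, at 0.78 and 0.18, and reached 5.7 and 6.69, a difference of 2.31 ± 0.27. The FGF21 call was lost without EZH1-/- sample 1 and without EZH1-/- sample 2.

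The promoters of a riser from each of these groups are shown because both hold the core letters of the C/EBP-ATF response element. The 300 bases run from 250 before to 50 after the RefSeq start on GRCh38.p14, 5′ to 3′ on the strand of the gene, and capitals mark each match to TGATGNAA on either strand. CHAC1 lies at chr15:40953221-40953520 on the plus strand and FGF21 at chr19:48755274-48755573 on the plus strand.
CHAC1: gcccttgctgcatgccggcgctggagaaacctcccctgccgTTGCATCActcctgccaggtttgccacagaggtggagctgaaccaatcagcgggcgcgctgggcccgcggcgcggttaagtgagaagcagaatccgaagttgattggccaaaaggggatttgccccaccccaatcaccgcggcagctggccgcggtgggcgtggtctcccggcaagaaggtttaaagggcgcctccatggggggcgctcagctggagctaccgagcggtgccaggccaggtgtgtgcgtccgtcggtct
FGF21: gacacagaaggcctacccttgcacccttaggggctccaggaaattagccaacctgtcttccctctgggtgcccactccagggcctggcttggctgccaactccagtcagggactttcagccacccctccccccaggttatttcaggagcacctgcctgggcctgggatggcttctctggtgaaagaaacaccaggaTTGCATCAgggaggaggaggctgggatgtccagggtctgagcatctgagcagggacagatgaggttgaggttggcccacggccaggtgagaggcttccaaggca
These letters were found in 1003 of all 27305 promoters of this length (3.67%), in 185 of 11629 promoters of tested genes (1.59%), in 3 of the 59 risers with a promoter sequence and in 4 of 17 genes of the stress list. The promoters of DDIT3, SESN2, DDIT4 and TRIB3, searched in the same way, held 0 matches, and that of ATF3 held 1. A match is a description of the sequence and not a measured site.

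DDIT4, an inhibitor of mTORC1 that is induced by low oxygen and by glucocorticoids, rose 9.81-fold. Its TPM was 54.21 and 45.94 in WT cells and 468.05 and 531.02 in EZH1-/- cells, a difference of 3.29 ± 0.12 (adjusted p = 1.624e-06). TXNIP, which binds thioredoxin and limits glucose uptake, went from 6.92 and 5.58 to 58.72 and 123.63, at 3.58 ± 0.33. TSC22D3, a target of glucocorticoids, went from 11.97 and 9.9 to 38.25 and 71.47, at 2.17 ± 0.26. The EZH1-/- samples of TXNIP and TSC22D3 were themselves far apart, though above every WT and EZH2-/- sample. The TXNIP call was lost without either WT sample, and the TSC22D3 call without WT sample 2 and without EZH1-/- sample 2. ARRDC4, the arrestin-domain relative of TXNIP, went from 2.7 and 2.64 to 4.52 and 10.76 and was higher only by the looser threshold, at 1.13 ± 0.33. SLC16A3, which exports lactate, rose from 3.11 and 2.16 to 14.91 and 20.07, at 2.35 ± 0.23, and its call was lost without EZH1-/- sample 2. Of 29 genes of glycolysis and hypoxia, 2 rose (DDIT4 and SLC16A3), and 10 were higher and 2 lower by the looser threshold, among them PKM at 0.53 ± 0.08 and LDHA at -0.48 ± 0.08. The list median was 0.12. Over all tested genes 0.821% rose, and 14.4% were higher and 14.1% lower by the looser threshold.

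DLL3, a Notch ligand that blocks Notch signalling within the cell that makes it, had a TPM of 8.9 and 6.29 in WT cells and 66.18 and 62.77 in EZH1-/- cells, a difference of 2.95 ± 0.17 (adjusted p = 1.936e-05). EDNRB, the endothelin B receptor, went from 20.69 and 18.68 to 122.77 and 107.82, at 2.49 ± 0.12. BBS9, a subunit of the complex that carries membrane proteins to cilia, went from 10.48 and 15.6 to 86.87 and 93.69, at 2.72 ± 0.17. These 3 calls held whichever of the 4 samples was left out, but in the fit of 12 samples the adjusted p was 0.053 for EDNRB and 0.0195 for BBS9. Of the other Notch genes, LFNG, which adds sugars to Notch receptors, was higher at 1.46 ± 0.14 and the target HEY1 lower at -0.91 ± 0.25 by the looser threshold, and NOTCH1 stood at 0.11 ± 0.17. Over the 14 Notch genes tested, a list drawn up after the values were seen, 5 were higher and 1 lower by that threshold, with a median of 0.42. After GC correction 3 were higher and 1 lower, with a median of 0.31, and 1 was higher in the fit of 12 samples. Over all tested genes 14.4% were higher and 14.1% lower by the looser threshold.

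RAB17, a small GTPase of epithelial membrane traffic, went from 68.06 and 72.5 to 220.34 and 226.82, at 1.66 ± 0.10. After GC correction it stood at 1.55, just under 3-fold. The phospholipase gene PLA2G16 went from 58.47 and 73.52 to 265.37 and 262.09, at 1.99 ± 0.12. ABHD12B rose from 136.8 and 131.74 to 418.82 and 444.94, at 1.68 ± 0.09. Both PLA2G16 and ABHD12B kept their calls in every fit that left out 1 sample, and ABHD12B had an adjusted p of 0.0396 in the fit of 12. The linker histone gene H1F0, known to accumulate in cells that slow their division, went from 93.9 and 81.15 to 272.06 and 434.89, at 1.97 ± 0.21, and its call was lost without WT sample 2. PTPRN, of dense-core secretory vesicles, went from 3.79 and 3.83 to 18.62 and 18.66, and RTP1, which helps olfactory receptors to the cell surface, from 0.64 and 0.67 to 8.69 and 9.23. Both calls were lost without EZH1-/- sample 2.

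HSPA8, HSPA1A and HSPA1B, all of the heat shock protein 70 family, fell. HSPA8, the constitutive cytosolic chaperone, had a TPM of 2529.03 and 2723.15 in WT cells and 722.03 and 468.59 in EZH1-/- cells, a difference of -2.17 ± 0.19 (adjusted p = 0.000928). It was at 2228.07 and 2238.98 in EZH2-/- cells, close to the WT samples. The stress-induced HSPA1A went from 52.12 and 51.0 to 10 and 8.08, at -2.39 ± 0.15, and HSPA1B from 46.53 and 47.84 to 10.28 and 7.37, at -2.31 ± 0.17. HSPA1A and HSPA1B are near-identical copies, so the split of reads between them is uncertain. All 3 calls held in every fit that left out 1 sample.

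Of 22 heat shock protein genes tested, a list drawn up after the values were seen, 3 fell by the main rule and 16 were lower and 0 higher at an adjusted p of at most 0.05. Over all tested genes 0.252% fell by the main rule, and 14.1% were lower and 14.4% higher by the looser one. The list median was -0.60. After GC correction 12 were lower, and in the fit of 12 samples 4 were. The co-chaperone DNAJA1, which hands clients to heat shock protein 70, went from 164.66 and 200.75 to 83.53 and 66.65, at -1.27 ± 0.14. HSP90AA1 was lower at -0.67 ± 0.11 and the mitochondrial HSPE1 at -0.95 ± 0.11. The small heat shock protein gene HSPB1 did not pass, at -0.10 ± 0.10.

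The promoter of HSPA8, the most abundant gene that fell, is given because it holds the inverted GAA units that heat shock factors bind. It lies at chr11:123062087-123062386 on the minus strand of GRCh38.p14 (RefSeq), and capitals mark 2 matches to a run of 3 GAA units in alternating orientation with 2 bases between units, searched on both strands.
HSPA8: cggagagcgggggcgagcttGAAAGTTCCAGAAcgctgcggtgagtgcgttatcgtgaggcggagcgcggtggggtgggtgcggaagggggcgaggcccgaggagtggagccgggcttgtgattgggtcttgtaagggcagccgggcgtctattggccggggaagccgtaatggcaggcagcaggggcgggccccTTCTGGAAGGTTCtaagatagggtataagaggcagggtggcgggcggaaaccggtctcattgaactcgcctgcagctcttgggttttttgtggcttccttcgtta
This motif was present in 133 of all 27305 promoters (0.487%), in 33 of 11629 promoters of tested genes (0.284%), in 1 of the 18 genes that fell and have a promoter sequence, and in 3 of 20 heat shock protein genes. The promoters of HSPA1A and HSPA1B, which fell as well, were searched in the same way and held 0 matches. No promoter printed here held both motifs.

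ODC1, the rate-limiting enzyme of polyamine synthesis, fell with little scatter. Its TPM was 117.74 and 120.28 in WT cells, 22.64 and 22.47 in EZH1-/- cells, and 136.86 and 139.33 in EZH2-/- cells, so both other genotypes lay far above EZH1-/-. The difference from WT was -2.35 ± 0.11 (adjusted p = 6.309e-06), and the call held in every fit that left out 1 sample. The next enzymes of the pathway differed less, with AMD1 at -0.59 ± 0.12 and SRM at -0.81 ± 0.10, both lower by the looser threshold. SAT1, which starts polyamine breakdown, did not pass at 0.29 ± 0.12. Over the 10 polyamine genes, also listed after the values were seen, 4 were lower and 0 higher, with a median of 0.02. By the looser threshold 14.1% of all tested genes were lower and 14.4% higher.

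FZD2, a WNT receptor, fell from 28.75 and 34.35 to 6.91 and 7.08, at -2.02 ± 0.17 (adjusted p = 0.000106). In EZH2-/- cells it was at 12.62 and 20.5, between the other genotypes. Of 17 WNT genes tested FZD2 alone was called, and 3 were higher and 4 lower by the looser threshold. These were 17.6% and 23.5% of the list, against 14.4% and 14.1% of all tested genes. The decoy receptor SFRP1 stood at -0.98 ± 0.11 and the feedback target AXIN2 at 0.89 ± 0.19. CCKBR, the receptor for gastrin, fell from 8.39 and 11.59 to 1.05 and 1.46, a call lost without either EZH1-/- sample. UBAP2L, which encodes a stress granule protein, fell from 277.18 and 281.49 to 89.05 and 82.87, at -1.69 ± 0.10.

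Cholesterol synthesis genes were mostly lower by small amounts. HMGCS1, an early enzyme of the pathway, went from 252.13 and 236.23 to 101.63 and 60.37, at -1.63 ± 0.22, and was the only one of 20 listed genes to be called. Its call was lost after GC correction, without either WT sample and without EZH1-/- sample 2. By the looser threshold 13 of the 20 were lower and 1 was higher, with a median of -0.53, and 12 were lower after GC correction. Over all tested genes 14.1% were lower and 14.4% higher by that threshold, and 13.3% were lower after GC correction. SQLE, an enzyme of the sterol branch, stood at -0.94 ± 0.12 and the fatty acid synthase FASN at -1.17 ± 0.17. In the fit of 12 samples 1 gene was higher and 1 lower.

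A large share of the calls were non-coding or lowly expressed. Of the 127 risers 69 were protein coding and 53 were long non-coding RNAs, a class that made up 11.4% of the genes tested, and 12 were listed at 0 in both WT samples. Of the 39 that fell 20 were protein coding and 17 long non-coding, and 8 were listed at 0 in both EZH1-/- samples. In all, 35 risers were under a TPM of 1 in both WT samples and 11 falls were so in both EZH1-/- samples. Those genes passed the filter only through the group where they were high, so their p-values are not free of that selection. FGF21, RTP1, CTC-458G6.4 and LSMEM2 are among them. The median difference was 1.93 among the risers and -2.02 among the genes that fell. LINC01108 went from 2.81 and 3.35 to 41.15 and 28.34, and LINC01194 from 31.42 and 37.01 to 4.01 and 7.51, although the EZH2-/- samples had LINC01194 at 49.4 and 1.29. RP11-536I6.2 went from 2.15 and 2.41 to 58.19 and 57.92, and CTC-458G6.4 from 0.92 and 0.49 to 13.22 and 15.66. These 4 calls held in every fit that left out 1 sample.

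Some of the largest differences were uncertain as changes of a gene. Exons of 52 risers and of 16 genes that fell overlap exons of another gene of the files, on either strand. For 47 risers and 10 falls the overlap included the opposite strand. The share over all tested genes was not counted, so these numbers do not set the calls apart from other genes. At such exons reads can be divided between genes or, if strand was not used in the counting, cannot be told apart. CDK3 fell from 10.63 and 8.44 to 0.89 and 2.03 while TEN1-CDK3, a readthrough gene that shares its exons, rose from 1.37 and 1.84 to 10.14 and 12.03, and both calls were lost without either EZH1-/- sample. MEF2B, which shares exons with a readthrough gene, rose from 2.12 and 3.91 to 23.14 and 52.72, a call lost without WT sample 1 and without EZH1-/- sample 2. Other levels switched within the replicate pair of another line. The ubiquitin ligase gene HERC3 rose from 0.92 and 1.38 to 59.3 and 48.99, the largest rise of all, but it was at 3.24 and 43.12 in the EZH2-/- samples. CDK10 fell from 55.04 and 44.46 to 3.61 and 4.52 and was at 4.36 and 52.63 in the EZH2-/- samples.

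The non-coding RP11-386G11.10, which overlaps TUBA1A and TUBA1B on the other strand, had the largest fall, from 278.82 and 185.67 to 0.0 and 0.53, with 120.51 and 0.57 in the EZH2-/- samples. AP000275.65 went from 30.39 and 30.59 to 0.74 and 1.76, with 50.96 and 0.0 in the EZH2-/- samples. In all, 12 risers and 6 genes that fell differed at least 8-fold within a replicate pair of another knockout line, against 110 of all genes tested (0.711%). CCZ1B, which fell from 131.48 and 131.93 to 27.28 and 30.95, has a near-identical copy, so its value is uncertain as well.

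None of the PRC2 genes was called. Of 14 tested, 2 were higher and 4 lower at an adjusted p of at most 0.05, 0 passed that threshold in the fit of 12 samples, and the median was -0.11. EZH2 went from 54.55 and 58.89 to 34.8 and 29.2, at -0.81 ± 0.13 (adjusted p = 0.00252), and SUZ12 from 25.21 and 27.89 to 16.23 and 16.93, at -0.65 ± 0.14. EED had values of 17.3 and 21.96 in WT cells and 15.64 and 14.04 in EZH1-/- cells, which did not pass. The accessory subunit PHF19, which guides PRC2 to CpG islands, was higher, from 21.55 and 23.59 to 39.96 and 38.73, at 0.78 ± 0.13. After GC correction 3 were higher and 1, EZH2, was lower. Of 22 tested genes of the partner complex PRC1, 2 were higher and 3 lower with a median of -0.04, and RNF2, its ubiquitin ligase, stood at -0.76 ± 0.15. Of 11 demethylase and trithorax genes that act against PRC2, 4 were lower with a median of -0.30. Of 7 DNA methylation genes 4 were lower with a median of -0.38, with DNMT3B from 845.71 and 840.39 to 540.87 and 537.8, at -0.64 ± 0.08. None of these lists held a called gene. With 0.821% of all tested genes called higher and 0.252% lower, lists this short would seldom hold one. By the looser threshold 14.4% of all tested genes were higher and 14.1% lower.

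**Figure D2:**
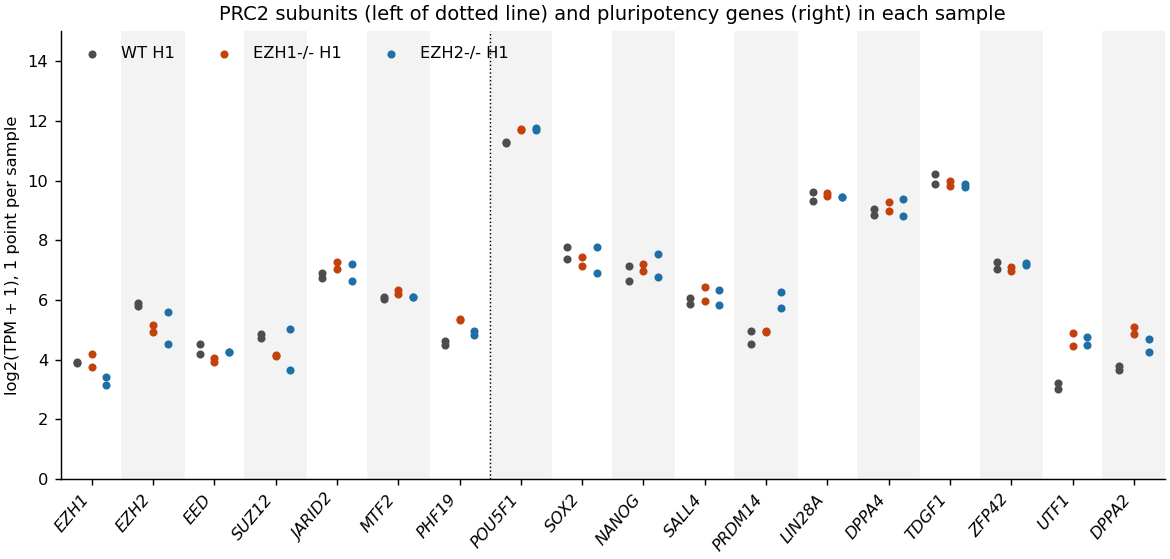
Log2(TPM + 1) is plotted with 1 point per sample for 7 PRC2 subunit genes, left of the dotted line, and 11 pluripotency genes, right of it, in WT, EZH1-/- and EZH2-/- H1 cells. EZH1-/- points lay beside the WT points for EZH1, SOX2, NANOG and TDGF1, below them for EZH2 and SUZ12, and above them for UTF1 and DPPA2.

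None of the pluripotency genes that define hESCs was called. Over all tested genes 0.821% were called higher and 0.252% lower, so 0 calls in a list this short says little. All 38 listed genes were expressed, and the 95% interval lay within 2-fold for 28 of them. The widest spread was in the Nodal antagonist LEFTY1, at 35.71 and 9.15 in WT cells and 52.97 and 22.68 in EZH1-/- cells. The lowest estimate was that of DUSP6, a feedback phosphatase of FGF signalling, at 342.14 and 132.21 in WT cells and 57.26 and 53.66 in EZH1-/- cells, a difference of -1.92 ± 0.57 that did not pass (adjusted p = 0.11). POU5F1 (OCT4) had a TPM of 2530.98 and 2428.15 in WT cells and 3341.82 and 3366.6 in EZH1-/- cells, at 0.44 ± 0.07. SOX2 was at 164.6 and 218.65 in WT cells and 141.27 and 172.86 in EZH1-/- cells, and NANOG at 140.42 and 97.47 against 124.42 and 147.08. The groups overlapped for SOX2 and NANOG, with intervals of -0.61 to 0.05 and -0.17 to 0.59. By the looser threshold 5 genes were higher (13.2%) and 6 lower (15.8%), near the 14.4% and 14.1% of all tested genes. The list median was 0.05, and in the fit of 12 samples 2 were higher and 0 lower. UTF1 went from 8.22 and 7.15 to 21.17 and 28.8, at 1.57 ± 0.19, just under 3-fold, and DPPA2 from 11.5 and 12.72 to 33.4 and 27.75. The neuropeptide gene GAL went from 176.0 and 215.16 to 496.84 and 419.43, at 1.23 ± 0.12. ZIC2, a factor of primed pluripotency and of the neural plate, was lower, from 143.13 and 128.44 to 54.7 and 81.64, at -1.01 ± 0.17. Of 15 markers of the naive state 9 were expressed, and 3 of these were higher, among them DPPA5 from 1.36 and 1.77 to 5.56 and 5.22, with 1 higher after GC correction.

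Markers of differentiated lineages were mostly too low to test. Only 10 of 31 neural ectoderm markers, 6 of 30 of primitive streak and mesoderm, 6 of 21 of endoderm and 5 of 18 of trophoblast and amnion reached the TPM limit, and 0 of these 27 were called. At the shares over all tested genes, 0.821% higher and 0.252% lower, 0 calls among so few genes says little. Defining factors were at or near 0, with PAX6 at most 0.7, T at most 0.37, SOX17 at most 0.05 and HAND1 listed at 0 in all 4 samples. None of the 39 HOX genes reached the limit, and their highest value in the 4 samples was 0.19. Of the markers tested, those that passed the looser threshold were 2 lower in neural ectoderm (5 after GC correction), 2 higher in mesoderm, 2 in each direction in endoderm and 2 higher in trophoblast and amnion. By that threshold 14.4% of all tested genes were higher and 14.1% lower. KDR, the receptor for VEGF, was at 50.88 and 66.09 in WT cells and 104.8 and 132.98 in EZH1-/- cells, and the trophoblast and germ cell factor TFAP2C at 3.12 and 2.69 against 7.54 and 9.34. CER1 and AFP were the 2 lower markers of endoderm, at -1.34 ± 0.33 and -1.14 ± 0.24. Besides these, 2 of the 6 endoderm markers were higher, the highest estimate was 0.89 and the list median was -0.08. Of 17 germ line genes 4 were tested and SOHLH2 alone was called, at 1.59, a call that held only without WT sample 2 among the fits that left out 1 sample.

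Signalling genes were likewise set against all tested genes, of which 0.821% rose and 0.252% fell by the main rule. By the looser threshold 14.4% were higher and 14.1% lower. Of 34 tested genes of BMP and TGF-beta signalling INHBE alone was called, 6 were higher and 2 lower by the looser threshold, and the median was -0.06. The BMP targets ID1 and ID3 were higher, ID1 from 131.6 and 102.14 to 221.06 and 217.98 and ID3 from 153.69 and 114.33 to 262.21 and 251.15, and the ligand gene BMP7 was higher at 1.07 ± 0.19. The ligand gene BMP4 did not pass, at 2.5 and 3.25 in WT cells and 3.73 and 4.13 in EZH1-/- cells. Of 19 FGF signalling genes 4 were higher and 1 lower with a median of 0.31 and 0 calls, and the lowest estimate was that of DUSP6, given above, while the receptor gene FGFR1 stood at 0.19 ± 0.11.

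Growth and stress genes outside these pathways were set against all tested genes, of which 0.821% rose and 0.252% fell by the main rule. By the looser one 14.4% were higher and 14.1% lower. Of 28 proliferation genes 2 were higher and 16 lower by the looser threshold, with a median of -0.33 and 0 calls, and 0 passed it in the fit of 12 samples. RRM2, which supplies deoxynucleotides, went from 125.1 and 133.54 to 60.91 and 51.47, at -1.19 ± 0.12, and PCNA, the replication clamp, stood at -0.89 ± 0.14. Of 20 p53 targets 8 were higher and 0 lower, with a median of 0.54, and SESN2 alone was called. Of the rest, FDXR, of mitochondrial electron transfer, went from 17.92 and 20.46 to 49.32 and 47.36, and the apoptosis gene BAX from 118.7 and 161.9 to 288.73 and 280.48. Of 23 interferon and antigen presentation genes 12 were higher and 2 lower, with a median of 0.46, among them TAP1, the peptide transporter, at 1.41 ± 0.17, and after GC correction 9 were higher. Of 16 immediate early genes 3 were called lower. By the looser threshold 6 of them were higher and 4 lower, with a median of 0.30, and after GC correction 3 were higher. FOS was higher at 1.05 ± 0.16, and IER3 fell besides the heat shock genes already given, from 55.83 and 24.56 to 9.89 and 8.33, a call that was lost after GC correction and that held only without WT sample 2 among the fits that left out 1 sample.

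Levels also differed with base composition. When the 15326 tested genes with a transcript sequence were split into 5 equal bins by GC content, the median difference went from -0.22 in the bin with the lowest GC through -0.06, 0.02 and 0.10 to 0.27 in the bin with the highest. The share of genes higher at an adjusted p of at most 0.05 went from 5.12% to 27.3% and the share lower from 25.1% to 5.81%. Both EZH1-/- samples showed it, from -0.29 to 0.22 in sample 1 and from -0.15 to 0.33 in sample 2, while WT sample 2 minus WT sample 1 went from 0.06 to -0.09. After GC correction 108 genes rose and 35 fell by the main rule, of which 95 and 33 were among the first calls. The cause of this trend was not tested. Chromosome medians ran from -0.06 on the X chromosome to 0.17 on chromosome 19.

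To ask which levels differed from those in the other single knockout, EZH1-/- was tested directly against EZH2-/- in a fit of the 6 samples of both knockouts and WT. The EZH2-/- samples were less alike than the EZH1-/- samples, with 271 genes (1.75%) at least 3-fold apart. By the main rule 1 of 15841 genes was higher (0.00631%), RAB17, and 1 lower (0.00631%), ODC1. Both calls were lost without either EZH1-/- sample and in a fit without WT, where 0 genes passed the main rule in limma and 1508 were higher and 604 lower at an unadjusted p under 0.05. Without EZH2-/- sample 1 there were 183 higher and 34 lower, and without EZH2-/- sample 2 there were 114 and 46. At an adjusted p of at most 0.05, 71 were higher (0.448%) and 18 lower (0.114%). RAB17 had a TPM of 22.67 and 21.94 in EZH2-/- cells, below WT, and 220.34 and 226.82 in EZH1-/- cells, above WT. Of the 127 genes that rose against WT 27 also passed the looser threshold in this test, and 6 of the 39 that fell did. Both comparisons use the EZH1-/- samples, so they are not independent. Of the 127 risers 71 had both EZH2-/- samples above both WT samples, and 21 of the 39 that fell had both below. Among the 71 were PLA2G16 (137.11 and 129.12 in EZH2-/- cells), BBS9 (27.47 and 46.28), RTP1 (6.03 and 4.95) and RP11-536I6.2 (30.71 and 20.34). Both EZH1-/- samples lay beyond both EZH2-/- samples for 101 risers and 23 falls. The calls used the same WT samples, and shares over all tested genes were not counted.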

How the data were processed

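RNA-seq of H1 cells was analysed from the TPM values the authors deposited, 1 table of gene TPM per sample. Per the study's methods and the submitters' processing notes, reads were aligned with Bowtie and quantified with RSEM, and the notes name GRCh38, hg38 and hg19 with no role given. The methods also name EDASeq normalization of tag counts, and whether it was applied to these values is not given in the sources used here. Since TPM keeps no depth, no count test was run. Genes were kept if 2 or more of the 4 samples reached a TPM of 1, and log2(TPM + 1) was fitted with limma 3.58.1 in R 4.3.3 (2-sided, trend and robust options, Benjamini-Hochberg adjustment, 95% confidence intervals). The script was tested on simulated data. The comparisons of EZH1-/- with EZH2-/- cells used 6 samples, and 12 were read in all. Gene positions came from GENCODE 44 and promoter sequences from RefSeq on GRCh38.p14. GC correction took off, in 20 bins of genes by transcript GC, each sample's median deviation from the mean of the samples.

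Samples were grouped by their genotype labels. The members and gene lists were chosen with earlier results of these data known, and the lists of heat shock proteins, polyamine metabolism, arrestin-domain genes, secreted stress hormones, cytosolic ribosomal proteins and Notch signalling were added after the values were seen. The genes named were the called or first members of the lists, the 15 largest rises and falls, and calls kept in the fit of 12 samples. Others were named after their values were seen, namely EDNRB, BBS9, ABHD12B, UBAP2L, CCZ1B, CDK3, TEN1-CDK3, and the genes set apart in the direct test. Some list members are not reported by name here. The alternatives tried were other fits, filters, pseudocounts, scalings, a replicate block and leaving out each sample.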

Additional observations from a re-analysis of the deposited data

Results flagged for a closer look

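The following genes, called in EZH1-/- against WT H1 cells, differed between EZH1-/- and EZH2-/- H1 cells by a direct limma test of that difference in 6 samples (adjusted p at most 0.05). All values are log2(TPM + 1) in EZH1-/- minus EZH2-/-. Of genes listed for amino acid shortage and ER stress, DDIT3 stood at 3.71, CHAC1 at 3.08 and SESN2 at 2.03. DDIT4 stood at 3.48, TXNIP at 2.71 and TSC22D3 at 2.06. The secreted hormones INHBE and FGF21 stood at 3.77 and 2.61. RAB17 stood at 3.27, EDNRB at 2.78, DLL3 at 2.48, ABHD12B at 1.20 and LSMEM2 at 1.68. G0S2, which inhibits lipolysis, stood at 2.32. MEF2B stood at 3.66 and TEN1-CDK3 at 2.56, and both share exons with other genes. Among long non-coding RNAs, LINC01356 stood at 2.58 and RP11-136F16.1 at -2.70. On the lower side ODC1 stood at -2.56, HSPA1B at -2.35, HSPA8 at -1.94 and HSPA1A at -1.88. Among the calls against WT, those of G0S2 and TEN1-CDK3 were lost without either EZH1-/- sample and that of RP11-136F16.1 without EZH1-/- sample 1, while LINC01356 and LSMEM2 kept theirs in 1 of the 4 fits that left out a sample. These genes were chosen by their difference from WT in the same EZH1-/- samples, and the EZH2-/- samples were far apart from each other for many genes.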

How the results depend on the processing

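The main calls against WT were 127 higher and 39 lower genes, and none of them took the opposite sign under any alternative. The larger fits, the replicate block and the fit without the trend and robust options keep the same group means. The other filters, the fits on a subset of genes and the looser threshold keep them too. In those the sign could not change, so it says nothing there. Counts moved by more than 1.5 times with the spread assumed, at 6 and 2 in the fit of 6 samples, 15 and 8 in the fit of 12, and 17 and 7 without the trend and robust options. They were 46 and 18 with no filter, 76 and 24 when all 4 samples had to reach a TPM of 1, 223 and 50 with a pseudocount of 0.1, 69 and 20 in protein-coding genes alone, and 2228 and 2181 at an adjusted p of 0.05 with no fold. Intervals within 2-fold, 11258 as reported, numbered 7244 in the fit of 12 and 18714 with no filter. Leaving out each sample gave 31 to 154 higher and 18 to 44 lower genes, with 49 and 20 without EZH1-/- sample 1 and 31 and 18 without EZH1-/- sample 2, and 26 higher and 13 lower genes were called in all 4 such fits. A sample left alone in its group was assumed to vary like the other group.

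With the replicate block 128 genes were higher and 42 lower, and 164 of the 166 calls were shared. The deviations of same-numbered samples had a correlation of -0.05. This single value cannot tell whether same-numbered samples shared a batch or a culture. The direct test against EZH2-/- cells gave 0 in either direction in a limma fit of those 4 samples (1508 higher and 604 lower at an unadjusted p under 0.05), and 71 higher and 18 lower at an adjusted p of 0.05. Leaving out 1 sample gave 0 to 183 higher and 0 to 46 lower, with 0 and 0 without either EZH1-/- sample (1302 and 418 at an unadjusted p under 0.05 without sample 1, and 690 and 354 without sample 2), 183 and 34 without EZH2-/- sample 1, and 114 and 46 without EZH2-/- sample 2. The cause of these shifts was not tested. Groups of 2 samples and the unknown depth limit what can be said of low genes.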

Other observations

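Genes of cytosolic ribosomal proteins, a list added after the values were seen, were higher by small amounts at high levels. Of 38 tested, 19 were higher and 4 lower at a limma adjusted p of at most 0.05, with a median of 0.18 against 0.02 over all genes and 0 calls. Over all tested genes 14.4% were higher and 14.1% lower. RPS29 had a TPM of 2287.89 and 2031.01 in WT cells and 5104.09 and 5055.35 in EZH1-/- cells, and RPL10 went from 2195.52 and 1919.28 to 4127.88 and 4027.4. In the EZH2-/- samples RPS29 was at 2513.91 and 5394.47, so one of them lay by WT and the other by EZH1-/-. After GC correction 13 were higher and 2 lower, and 0 passed in the fit of 12 samples.

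Metallothionein genes, which bind zinc and other metals, differed most within a genotype. MT1G had a TPM of 33.4 and 7.67 in WT cells and 73.65 and 739.23 in EZH1-/- cells, and MT1X 119.08 and 43.92 against 347.76 and 1051.37. None of the 7 tested passed an adjusted p of 0.05 from limma in the 4 samples and 2 had an unadjusted p under 0.05. The median was 2.75, and 2 were higher at an adjusted p of at most 0.05 in the fit of 12.

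Of 21 genes of the extracellular matrix and cytoskeleton 6 were higher and 7 lower by that threshold, with a median of -0.13 and 0 calls. The shares over all tested genes, 14.4% higher and 14.1% lower, stand beside each list here. The smooth muscle genes MYL9 and CALD1 were lower, MYL9 from 186.98 and 179.43 to 84.9 and 68.64 and CALD1 from 184.45 and 161.14 to 83.69 and 74.56, while fibronectin, FN1, was higher from 50.47 and 60.36 to 104.83 and 119.69. Of 17 imprinted genes 1 was higher, the cell cycle inhibitor CDKN1C at 1.22 ± 0.23, and 2 were lower, among them PEG10 from 99.02 and 82.76 to 44.92 and 41.92. Of 10 histone genes H1F0 alone was called, 1 was higher and 3 were lower. Of 10 genes at loci often gained in cultured hESCs 3 were higher and 1 lower, with 0 calls. Of 9 arrestin-domain and glucose response genes, listed after the values were seen, 3 were higher and 0 lower, with TXNIP called. Their median went from 0.35 to 0.07 after GC correction, and 1 was higher in the fit of 12 samples. Of the 5 secreted stress hormones, also listed after the values were seen, 5 were higher, with INHBE and FGF21 called. After GC correction 3 of these hormones were higher, and 2 were in the fit of 12 samples.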
